A study of Mus musculus with 4 samples.

Results

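The 10 genes described here were the transcription factors Atf4, Atf6, Xbp1 and Ddit3 (encoding CHOP), the ATF4-arm genes Trib3, Asns and Chac1, and the endoplasmic reticulum (ER) genes Hspa5, Herpud1 and Dnajb9. They belong to the unfolded protein response and the integrated stress response. They were chosen by name, as every probe whose gene name in the scanner files is one of these symbols. All 10 were found, among 16542 genes with a measured value, through 12 of 35540 probes. All 12 probes were well above background on all 4 arrays, so no member entered through a single condition.

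Cardiac mesenchymal progenitors (CMPs), Sca-1+ cells isolated from the atria of adult wild-type C57BL/6 hearts and grown in culture, were profiled on single-colour Agilent mouse arrays. The CMP control was untreated. Its title and source name give no day, and it is placed at 0 in the figures. The OSKM-CMPs had received Sendai virus carrying Oct4, Sox2, Klf4 and c-Myc and were taken on days 4, 6 and 8, a setting in which the study followed the turning of these cells into lipid-laden ones. Each condition had 1 array and hence no replicate, so no test was possible and no p-value is given. The transduced cells were moved to a reprogramming medium after infection, and the control had a single time, so the virus, the 4 factors, the medium and the time in culture cannot be told apart. All 10 markers of mesenchymal progenitors fixed for this work, among them Ly6a (Sca-1) and Pdgfra, were well above background on every array. Values below are scaled signals, that is, the processed intensity of an array divided by the 75th percentile of that array. Differences are on the log2 scale with ± the SD of the scanner software's error model, which covers the array only and neither the culture nor the RNA preparation. A gene was said to rise or fall if it changed at least 2-fold, a log2 change of 1. A whole culture was measured, so fewer cells of a type and less RNA per cell cannot be told apart.

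The unfolded protein response is switched on when misfolded proteins pile up in the ER. It has 3 sensors in the ER membrane: ATF6, which is cut to release a transcription factor, IRE1 (Ern1), which splices Xbp1 mRNA, and PERK (Eif2ak3), which phosphorylates the translation factor eIF2. Phosphorylation of eIF2 is also the meeting point of the integrated stress response, reached from amino acid shortage, haem shortage and viral RNA through other kinases. It slows protein synthesis and favours translation of ATF4, which turns on genes for amino acid supply, tRNA charging and, together with CHOP, feedback and cell death. Secretory cells such as adipocytes and matrix-producing mesenchymal cells rely on the ER branch. The arrays measured RNA, and neither eIF2 phosphorylation nor protein was measured.

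The factors of these branches are known to bind short promoter motifs, and the 250 bases before the start of 9 members (RefSeq, GRCm38.p6) were searched for these on both strands. The C/EBP-ATF response element, read by ATF4, was searched as TGATG, any 1 base, then AA. The ER stress response element, read by ATF6 with NF-Y, was searched as CCAAT, any 9 bases, then CCACG. Its second form was searched as ATTGG, any 1 base, then CCACG, and the UPR element as TGACGTGG. Shown are the 4 promoters with a match, with the matched letters in capitals, and that of Ddit3, the only member that rose, which had none. Each is read 5′ to 3′ on the gene's strand and ends at the base before the start. They lie at chr6:7693210-7693459 (minus strand) for Asns, chr2:119350992-119351241 for Chac1, chr8:94386179-94386428 for Herpud1, chr2:34771840-34772089 for Hspa5 and chr10:127290543-127290792 for Ddit3 (all plus strand).
Asns: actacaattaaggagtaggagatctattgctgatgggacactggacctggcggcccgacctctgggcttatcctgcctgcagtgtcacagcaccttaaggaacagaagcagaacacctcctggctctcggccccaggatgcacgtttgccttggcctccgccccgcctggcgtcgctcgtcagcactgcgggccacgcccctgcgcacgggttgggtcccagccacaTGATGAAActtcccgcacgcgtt
Chac1: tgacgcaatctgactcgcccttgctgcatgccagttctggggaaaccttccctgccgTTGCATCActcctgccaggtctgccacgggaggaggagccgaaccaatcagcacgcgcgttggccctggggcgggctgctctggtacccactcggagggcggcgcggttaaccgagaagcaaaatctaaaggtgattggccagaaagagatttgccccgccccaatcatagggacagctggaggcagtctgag
Herpud1: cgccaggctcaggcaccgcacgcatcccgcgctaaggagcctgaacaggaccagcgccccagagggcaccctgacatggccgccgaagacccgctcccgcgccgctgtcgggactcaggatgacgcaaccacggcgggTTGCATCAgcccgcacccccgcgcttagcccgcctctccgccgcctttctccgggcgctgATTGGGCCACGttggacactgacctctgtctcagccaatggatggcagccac
Hspa5: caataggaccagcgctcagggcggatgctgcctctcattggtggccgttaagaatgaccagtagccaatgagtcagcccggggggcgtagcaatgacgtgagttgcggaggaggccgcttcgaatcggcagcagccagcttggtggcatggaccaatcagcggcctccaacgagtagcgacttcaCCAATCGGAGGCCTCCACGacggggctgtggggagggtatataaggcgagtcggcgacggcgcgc
Ddit3: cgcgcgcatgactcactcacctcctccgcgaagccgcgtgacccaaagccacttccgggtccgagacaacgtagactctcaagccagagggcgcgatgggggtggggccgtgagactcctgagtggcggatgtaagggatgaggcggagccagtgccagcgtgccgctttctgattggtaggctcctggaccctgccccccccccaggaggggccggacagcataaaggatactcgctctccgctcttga
The C/EBP-ATF match began 23 bases before the start in Asns, 193 in Chac1 and 112 in Herpud1, in the last 2 on the opposite strand, where it reads as TTGCATCA. Of all 32851 mouse promoters of this length, 3.45% held this motif. The ER stress response element began 65 bases before the start of Hspa5 and its second form 52 bases before that of Herpud1. The first was held by 0.113% of all promoters and the second by 0.0304%. The UPR element, held by 0.563% of all promoters, was found in none of the 9. The promoters of Atf4, Trib3, Xbp1 and Dnajb9 held none of these letters either. The matches did not overlap each other, and a match or its absence in this window shows letters only.

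By the 2-fold rule the 10 genes showed 3 patterns. Atf4, Trib3, Asns and Chac1 fell on every day, and Herpud1 fell on days 4 and 6. Ddit3 was higher than the CMP control on every day and rose on days 6 and 8. Atf6, Xbp1, Hspa5 and Dnajb9 stayed within 2-fold of the control on every day. Below 2-fold the groups were not distinct, as Atf6, Xbp1 and Dnajb9 were also lower than the control on every day. At day 4, 5 of 10 had fallen, against 9.59% of all 16542 genes, and 0 had risen, against 12% of all genes. At day 6, 5 had fallen and 1 had risen, against 11.5% and 13% of all genes. At day 8, 4 had fallen and 1 had risen, against 11.6% and 14.4% of all genes. The median change of the 10 genes was -1.05, -0.75 and -0.64 on days 4, 6 and 8, beside -0.01, -0.04 and -0.03 over all genes. Scaled by the median of each array instead, all changes shifted together, by -0.14, -0.13 and -0.27 on the 3 days, and at day 8 40.0% of all calls were rises in place of 55.2%.

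**Figure D1:**
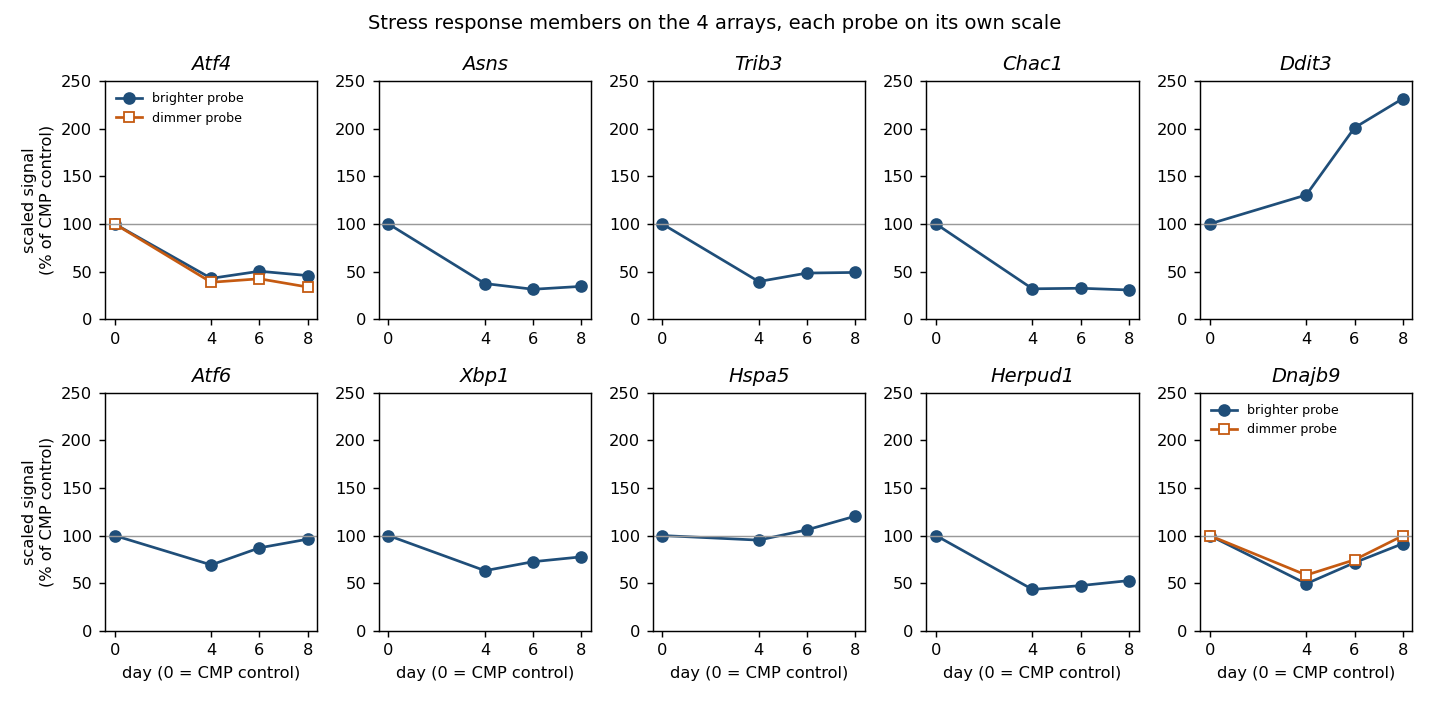
Scaled signal of each of the 12 probes on the 4 arrays, as a percentage of its own value in the CMP control (y axis, from 0) against the day (x axis, with the control at 0). Filled circles are the only or the brighter probe of a gene and open squares the dimmer one. Atf4, Asns, Trib3 and Chac1 stayed low on every later array, with Chac1 at 30.6% of the control at day 8, while Ddit3 reached 232% at day 8 and Dnajb9 dipped at day 4 and came back.

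Atf4, the transcription factor through which eIF2 phosphorylation acts on genes, was among the genes that fell. Its scaled signal, the geometric mean of its probes, was 26.7 in the CMP control and then 10.9, 12.3 and 10.5 on days 4, 6 and 8. The control was the highest of the 4 arrays and the 3 OSKM-CMP arrays were close to one another. The expression of Atf4 changed by -1.30, -1.11 and -1.35, each ± 0.14, on the 3 days, and so fell at each. The probe at chr15:80087902-80087961 (mm9, plus strand), nearer the 3′ end of the gene, read 166, 70.9, 83.3 and 75.7 in the order of time. The probe 1263 bases upstream of it read 4.31, 1.67, 1.83 and 1.45. Both probes thus had the control array highest, with day 8 changes of -1.13 and -1.57. At day 6 the change was within 2-fold with the brighter probe alone (-0.99), with quantile normalization (-0.97) and with normexp background correction before it (-0.93).

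Asns encodes asparagine synthetase, which makes asparagine from aspartate and glutamine and is a standard target of ATF4. Its scaled signal was 83.1 in the CMP control and then 31.1, 26.1 and 28.6 on days 4, 6 and 8. The control was the highest and day 6 the lowest array. Asns fell by 1.42 ± 0.20, 1.67 ± 0.20 and 1.54 ± 0.20 (log2 changes of -1.42, -1.67 and -1.54), which left 34.4% of the control signal at day 8. Its probe lies at chr6:7625171-7625228 (mm9, minus strand), and its promoter above carries the C/EBP-ATF letters close to the start. The fall passed 2-fold on all 3 days under each of the 11 ways of processing. Of these, mainly the changes of scale or normalization could move a gene with a single bright probe.

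Chac1 encodes an enzyme that breaks down glutathione and is turned on by the ATF4 and CHOP arm. Its scaled signal was 7.42 in the CMP control and then 2.36, 2.41 and 2.27 on days 4, 6 and 8. The OSKM-CMP arrays differed from one another by less than the array error, and all lay below the control. The log2 change was -1.65, -1.62 and -1.71, each ± 0.20, on the 3 days, the last a 3.27-fold lower level and the largest day 8 change among the 10 genes. As for Asns, 2-fold was passed on each day under all 11 ways of processing.

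Trib3 encodes a pseudokinase, induced by ATF4 and CHOP, that restrains ATF4 and the kinase AKT. Its scaled signal was 7.37 in the CMP control and then 2.91, 3.57 and 3.61 on days 4, 6 and 8. The control was the highest array and day 4 the lowest. Trib3 fell by 1.34 ± 0.20 at day 4, and its changes of -1.05 ± 0.20 at day 6 and -1.03 ± 0.20 at day 8 were just past 2-fold. They were within 2-fold with quantile normalization (-0.95 and -0.93) and with normexp correction before it (-0.92 and -0.89).

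Ddit3, which encodes CHOP, moved the other way. CHOP is a C/EBP family factor tied to cell death under lasting ER stress, and in fat cell precursors it is known to hold back C/EBP-driven differentiation. Its scaled signal was 2.25 in the CMP control and then 2.94, 4.53 and 5.22 on days 4, 6 and 8, the control being the lowest array and day 8 the highest. The change was 0.38 ± 0.20 at day 4, and Ddit3 rose by 1.01 ± 0.20 at day 6 and by 1.21 ± 0.20 at day 8. The day 6 value lay at the limit of 2-fold. Under array-median scaling the changes were 0.87 at day 6 and 0.94 at day 8, both within 2-fold, as every gene shifted down by the same amount. Ddit3 was read by 1 probe, whose positions on mm9 (chr10:126732518-126732821, plus strand) span 304 bases, more than the length of a probe.

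**Figure D2:**
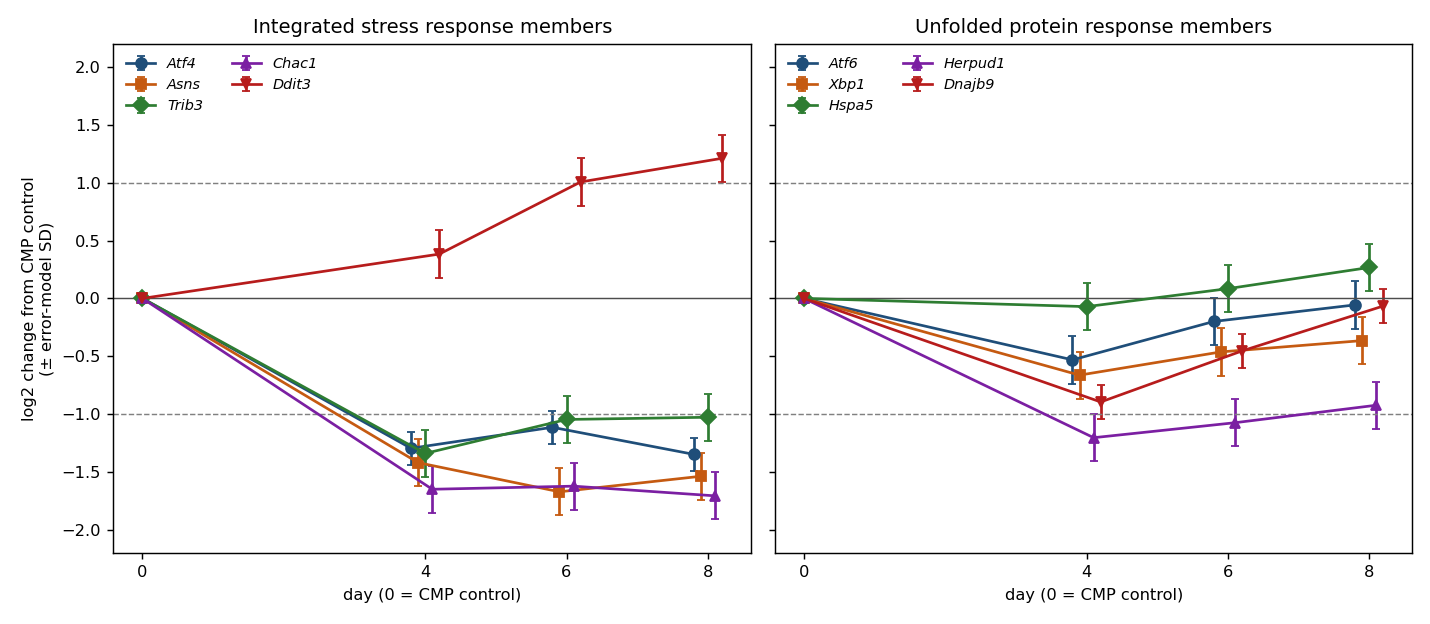
The log2 change of each member from the CMP control (y axis) against the day (x axis), with bars of ± 1 SD of the array error model. Dashed lines mark 2-fold. In the left panel Atf4, Asns, Trib3 and Chac1 lay between -1.71 and -1.03 on all days while Ddit3 reached 1.21, and in the right panel Herpud1 was lowest on each day.

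Atf6 and Xbp1, the transcription factors of the other ER branches, did not pass 2-fold on any day. The scaled signal of Atf6 was 0.760 in the CMP control and then 0.526, 0.662 and 0.731 on days 4, 6 and 8. Its change was -0.53 ± 0.20 at day 4 and -0.06 ± 0.20 at day 8, the latter within the array error. Xbp1 read 72.9, 46.0, 52.9 and 56.6 in the same order, with changes of -0.66 ± 0.20, -0.46 ± 0.20 and -0.37 ± 0.20. For both genes the control array was the highest and day 4 the lowest. The single Xbp1 probe, at chr11:5425816-5425875 (mm9, plus strand), gave no separate values for spliced and unspliced mRNA, so the action of IRE1 on it was not measured.

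Hspa5 encodes BiP, the main Hsp70 chaperone of the ER, which holds the sensors inactive and is the classic readout of ATF6. Its scaled signal was 163 in the CMP control and then 156, 173 and 197 on days 4, 6 and 8. Day 8 was the highest array, but the changes of -0.07, 0.08 and 0.27, each ± 0.20, were close to the array error. The sign at day 4 turned positive with quantile normalization (0.05) and with normexp correction before it (0.04), and at day 6 it turned negative with the array median as the scale (-0.05). At day 8 the change ranged from 0.00 with the array median to 0.61 with quantile normalization. Hspa5 thus stayed within 2-fold on each day under all of these.

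Herpud1, an ER membrane protein that gathers the machinery of ER-associated degradation, carried both a C/EBP-ATF and an ER stress motif in its promoter above. Its scaled signal was 21.8 in the CMP control and then 9.46, 10.3 and 11.5 on days 4, 6 and 8, with the control highest and day 4 lowest. Herpud1 fell by 1.20 ± 0.20 at day 4 and by 1.08 ± 0.20 at day 6 (changes of -1.20 and -1.08). At day 8 its change was -0.92 ± 0.20, short of 2-fold, and it passed 2-fold there with the array median as the scale (-1.19). At day 6 it was within 2-fold with quantile normalization (-0.92) and with normexp before it (-0.90). Unlike Hspa5, it was below the control on every day in all 11 ways of processing.

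Dnajb9 encodes ERdj4, a BiP co-chaperone that depends on XBP1 and returns BiP to IRE1. Its probes together gave a scaled signal of 1.42 in the CMP control and then 0.765, 1.04 and 1.36 on days 4, 6 and 8. The signal thus dipped at day 4 and was near the control again at day 8, with changes of -0.90 ± 0.15, -0.45 ± 0.15 and -0.07 ± 0.15. The brighter probe read 5.28, 2.61, 3.77 and 4.83 and the dimmer one, 959 bases away, 0.384, 0.225, 0.286 and 0.383. Both had day 4 as the lowest array. With the brighter probe alone the day 4 change was -1.02, and with the array median as the scale it was -1.04.

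Among the OSKM-CMP arrays, 7 of 10 members were higher at day 8 than at day 4, as were 7815 of all 16542 genes. The median difference was 0.31, beside -0.03 over all genes. The differences were 0.83 ± 0.20 for Ddit3, 0.83 ± 0.15 for Dnajb9, 0.48 ± 0.20 for Atf6, 0.34 ± 0.20 for Hspa5, 0.31 ± 0.20 for Trib3, 0.30 ± 0.20 for Xbp1 and 0.28 ± 0.20 for Herpud1. Atf4, Asns and Chac1 differed by -0.05 ± 0.14, -0.12 ± 0.20 and -0.06 ± 0.20, less than their array errors. From day 4 to day 6, 9 of 10 were higher, with a median of 0.19, beside 7545 of all genes and a median of -0.03, and Asns was the exception at -0.25. From day 6 to day 8, 8 of 10 were higher, with a median of 0.14, beside 8014 of all genes and a median of -0.01, and Atf4 (-0.23) and Chac1 (-0.08) were lower.

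Other cell types were followed through their own marker lists. The summed scaled signal of 10 adipocyte markers, which include Adipoq, Plin1 and Fabp4, went from 9.96 in the CMP control to 53.8, 175 and 373 on the later arrays, and 5, 9, 9 and 10 of them were well above background. The sum over the 7 measured of 8 endothelial markers went from 1.96 to 1.17, 1.24 and 1.13. In such sums a gene enters as the geometric mean of its probes, which differed for Kdr and Vwf. The bright Kdr probe read 11.8, 12.2, 12.6 and 11.5 and the dim one 0.0859, 0.0641, 0.0720 and 0.0605. The Vwf probes had day 8 changes of 1.46 and 0.11. Cdh5, Emcn and Tie1 were no longer well above background from day 4 on. The sum over the 9 measured of 10 leukocyte markers ranged from 1.85 to 2.05 over the 4 arrays, and Laptm5 was below background on all arrays. At day 8, 4 of the 7 endothelial markers measured had fallen and 0 had risen. Of the 9 leukocyte markers measured, 2 had fallen (Tyrobp, -2.84, and Lyz2, -2.58) and 2 had risen (Cd68 and Coro1a). Of all genes, 11.6% had fallen and 14.4% had risen. The sum over the 6 measured of 8 cardiomyocyte markers was 12.0, 4.67, 6.75 and 4.20 and was carried by Tnnt2 (11.8, 4.41, 6.48 and 3.90). The others went up or stayed: of 6 measured, 3 rose and 1 fell at day 8, with a median change of 1.04. Myh6, Myl7, Tnni3 and Ryr2 were below background in the control and above it at day 4, at scaled signals of at most 0.094, and Actc1 and Pln were below background throughout. The sum of the mesenchymal progenitor markers was 1504, 1243, 1308 and 1334, but single markers moved both ways. At day 8, Ly6a had a change of 2.69, Nt5e of 2.10, Thy1 of -1.78 and Eng of -1.19, so that 2 of 10 rose and 2 fell. The adipocyte sum thus went up with the day. From day 4 on so did Ddit3, Trib3, Atf6, Xbp1, Hspa5, Herpud1 and Dnajb9, of which only Ddit3 was above the control at day 4. The fall of Atf4, Asns and Chac1 was in place by day 4. The part of cell makeup in these results was not tested.

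The wider pathway was described through lists of its other genes, drawn up without the 10 members. On days 4, 6 and 8, 12%, 13% and 14.4% of all genes rose and 9.59%, 11.5% and 11.6% fell. Below the control were 8391, 8628 and 8560 of all 16542 genes. The counts of each list are to be read beside these. Of 19 genes of amino acid synthesis and transport known as ATF4 targets, all were measured, and 2 rose and 5 fell at day 8, 10.5% and 26.3% of them, against 14.4% and 11.6% of all genes. At day 6, 3 rose and 7 fell, and at day 4 3 rose and 3 fell. The median change was -0.34, -0.53 and -0.62 on days 4, 6 and 8. The 5 that fell at day 8 included Mthfd2, of the mitochondrial folate cycle, and Phgdh and Psph, the first and last enzymes of serine synthesis. Mthfd2 read 4.28 in the CMP control and then 1.47, 1.39 and 1.20 on days 4, 6 and 8, a day 8 change of -1.83 ± 0.20. Phgdh read 34.1, 21.2, 16.3 and 12.0, a steady decline to -1.51 ± 0.14, and Psph read 6.18, 2.52, 2.18 and 2.27 (-1.45 ± 0.14). The other two, Shmt2 (-1.43) and Psat1 (-1.16), also of serine and glycine metabolism, were picked out after their values were seen.

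Not every amino acid gene was lower. Gpt2, mitochondrial alanine aminotransferase, read 1.20 in the CMP control and then 1.67, 3.69 and 3.61 on days 4, 6 and 8 and rose by 1.59 ± 0.20 at day 8. Cth, cystathionine gamma-lyase, which makes cysteine, read 0.304, 0.582, 0.884 and 0.858 and was 2.83-fold higher at day 8 (log2 error 0.15). In both, every OSKM-CMP array was above the control. The remaining 12 genes of the list, mostly transporters, stayed within 2-fold at day 8. Some had passed it earlier and are named after their values were seen. Slc38a2 rose on days 4 and 6 (1.49 and 1.11). Slc7a3 (1.22) and Slc7a11 (1.05) rose at day 4, from dim control signals of 0.0946 and 0.0700. Slc6a9 fell on days 4 and 6 (-1.06 and -1.07), and Pycr1 (-1.12) and Pck2 (-1.05) fell at day 6.

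The 12 tRNA synthetases that ATF4 is known to induce were all measured. At day 8, 0 rose and 2 fell, 0% and 16.7% of them, against 14.4% and 11.6% of all genes. The median was -0.61 (-0.53 at day 4 and -0.57 at day 6). The 2 were Mars1, for methionine (7.25, 3.33, 3.30 and 2.72 over the 4 arrays, -1.42 ± 0.20 at day 8), and Cars, for cysteine (47.5, 23.1, 22.3 and 18.8, -1.34 ± 0.20). In both, the control was the highest and day 8 the lowest array. At day 4, 12 of the 12 were below the control, and at day 8, 11 were, beside 8391 and 8560 of all 16542 genes. The 8 other cytosolic synthetases had medians of 0.03, -0.21 and -0.27 on the 3 days, with 0 past 2-fold at day 8. Whether these lists differ was not tested.

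**Figure D3:**
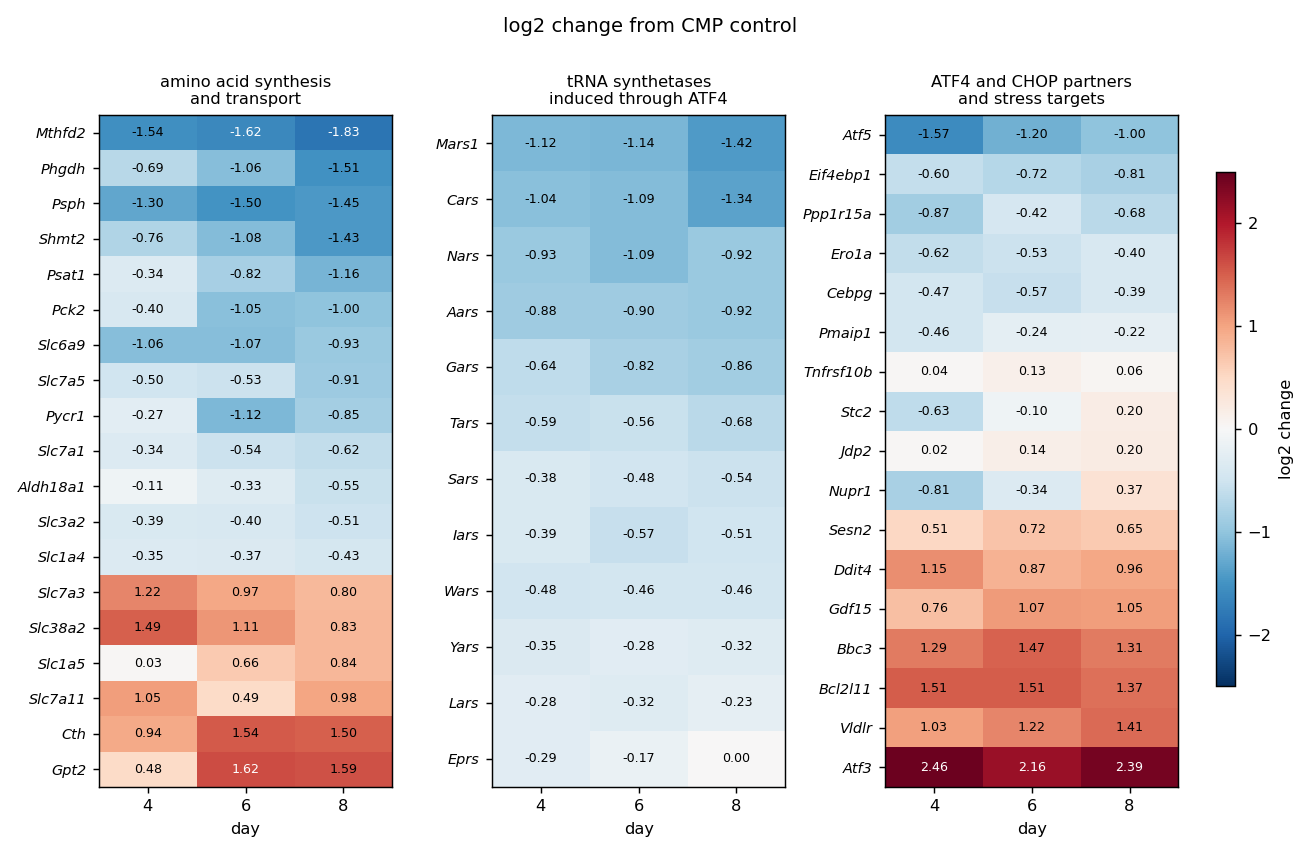
The log2 change from the CMP control on days 4, 6 and 8 (columns) for every measured gene of 3 lists (rows, ordered by day 8), with blue for lower and red for higher. Mthfd2 and serine synthesis genes, and Mars1 and Cars, stand at the lower end of their lists, and Atf3 at 2.39 the upper end of the third list.

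The partners of ATF4 and CHOP and their stress targets moved in both directions, with 8, 8 and 6 genes below the control on days 4, 6 and 8. Of 18 such genes 17 were measured, Fgf21 being below background. At day 8, 5 rose and 0 fell, 29.4% and 0% of them, against 14.4% and 11.6% of all genes. The median was 0.20 (0.02 and 0.13 before), or -0.07 with the array median as the scale. Atf3, a stress-induced repressor and early gene, read 0.138 in the CMP control and then 0.757, 0.613 and 0.722 on days 4, 6 and 8, and its rise of 2.39 ± 0.22 at day 8 was 1.43 with normexp and quantile normalization. Vldlr, a lipoprotein receptor known as a target of ATF4 and also of PPARγ in fat cells, read 1.58, 3.22, 3.70 and 4.22 (1.41 ± 0.14). Bbc3, the pro-death BH3 protein PUMA, which CHOP and p53 can induce, read 8.47, 20.7, 23.4 and 20.9 (1.31 ± 0.20). In all 3 the control was the lowest array. The other two that rose, picked out after their values were seen, were the stress cytokine Gdf15 (1.05) and the BH3 gene Bcl2l11, whose probes disagreed (0.56 and 2.19). Atf5, a factor translated like Atf4 and also named after its values were seen, read 242 in the CMP control and 81.4, 105 and 121 later, with a change of -1.57 at day 4 and -0.999, just short of 2-fold, at day 8.

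Upstream of Atf4, the eIF2 kinases, eIF2 and eIF2B subunits and the phosphatases were mostly somewhat lower. On the 3 days, 14, 15 and 15 of 17 were below the control, beside 8391, 8628 and 8560 of all 16542 genes. Of the 17, 0 passed 2-fold in either direction on any day. At day 8 the lowest was Eif2b3, an eIF2B subunit named after its values were seen, at -0.82 ± 0.14. Their medians were -0.28, -0.35 and -0.43. Among 12 sensors and processing genes of the ER, 0 rose and 1 fell at day 8, with a median of -0.22. These were 0% and 8.33% of them, against 14.4% and 11.6% of all genes. The gene that fell was Creb3l2, an ATF6-like factor of secretory cells, which read 4.72, 2.02, 1.51 and 1.56 on the 4 arrays (-1.60 ± 0.20). The genes of the sensors IRE1 and PERK, named after their values were seen, were below the control on each day. Ern1 had changes of -0.98, -1.03 and -0.62, past 2-fold at day 6, and its probes had day 8 changes of -0.98 and -0.25. Eif2ak3 had changes of -0.39, -0.22 and -0.12. Creb3l3, another ATF6-like factor named after its values were seen, read 0.114, 0.676, 0.228 and 0.184 on the 4 arrays. From this dim control signal it rose 5.92-fold at day 4 (2.57 ± 0.22), and it was within 2-fold later (0.996 and 0.69).

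The ER folding machinery stayed within 2-fold of the control, as Hspa5 did. Of 26 ER chaperones and folding enzymes, 0 rose and 0 fell on any day. On days 4, 6 and 8, 20, 16 and 16 were lower, beside 8391, 8628 and 8560 of all 16542 genes. The day 8 changes ranged from -0.78 to 0.61 with a median of -0.16 (-0.30 at day 4 and -0.28 at day 6). Of 20 genes of ER-associated degradation 19 were measured, Ubxn4 being below background. At day 8, 1 rose and 1 fell, 5.26% each, against 14.4% and 11.6% of all genes. Below the control were 15, 14 and 13 on the 3 days, and the day 8 median was -0.26. Derl3, a derlin of the ER membrane in that pathway, read 0.0645, 0.491, 0.360 and 0.345, and its rise of 2.42 ± 0.26 was 1.05 with normexp and quantile normalization. Ube2j1, its ubiquitin-conjugating enzyme, read 4.71, 2.94, 2.54 and 2.33 (-1.02 ± 0.12), but its 3 probes ranged from -1.49 to -0.19. Of 21 genes of ER translocation, signal peptidase and transport linked to XBP1, 0 rose and 1 fell at day 8. These were 0% and 4.76%, against 14.4% and 11.6% of all genes. The day 8 median of the 21 was -0.34, and 20, 21 and 19 were below the control on the 3 days. At day 6, 3 had fallen: Kdelr3 and, named after their values were seen, the signal peptidase subunits Sec11c (-1.19) and Spcs3 (-1.01). The probes of Spcs3 lay on either side of 2-fold there (-0.85 and -1.17). The gene that fell at day 8 was Kdelr3, a receptor that returns chaperones to the ER, which read 18.5, 7.50, 7.44 and 8.41 (-1.14 ± 0.20). Its day 8 change was within 2-fold with normexp and quantile normalization (-0.97), as was that of Ube2j1 (-0.88).

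**Figure D4:**
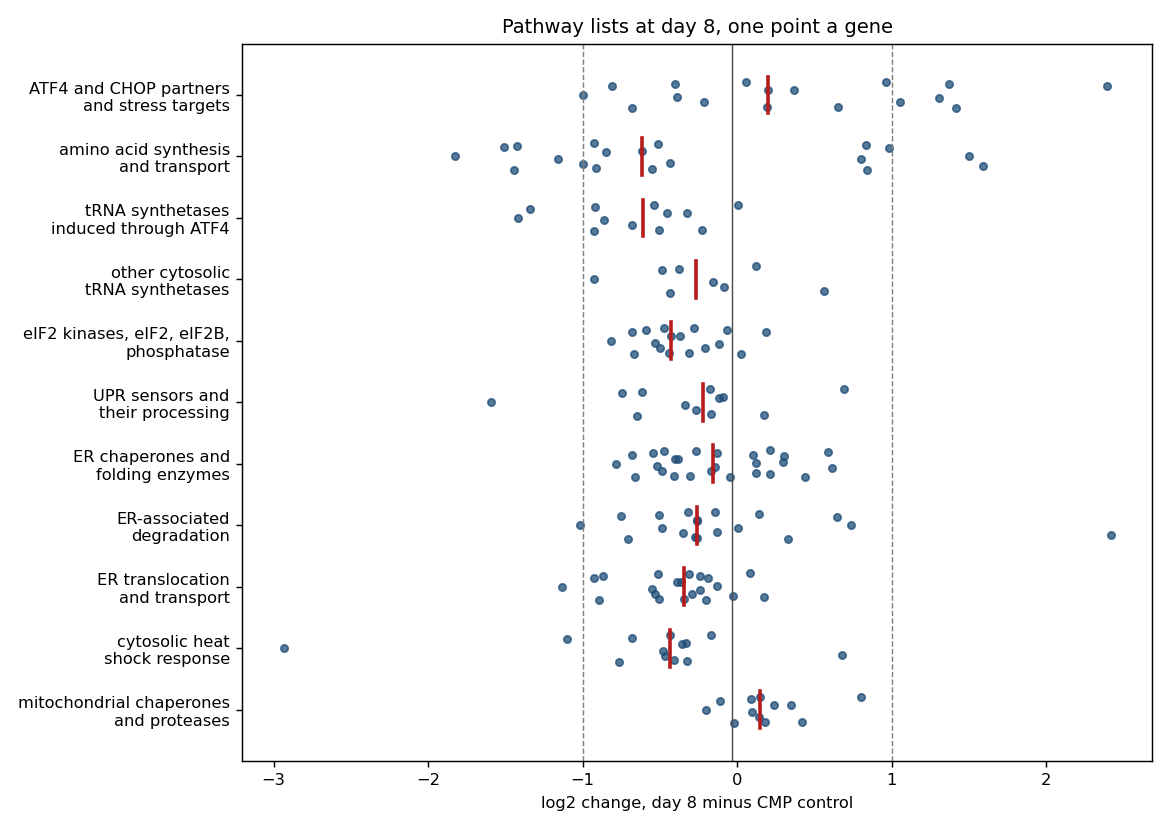
The log2 change at day 8 from the CMP control (x axis) for the measured genes of 11 pathway lists (rows), 1 point a gene, with red bars at the list medians, dashed lines at 2-fold and a thin line at the median of all genes. Amino acid genes and ATF4-linked tRNA synthetases have the lowest medians (-0.62 and -0.61), and ER chaperones all lie within 2-fold.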

How the data were processed

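Total RNA of 4 samples was labelled with Cy3 and hybridised to 1 array each. The deposited intensity per spot is the authors' processed signal, after background subtraction by Feature Extraction, version 10.7.3.1 per the file headers and 9.5.3 in the submitters' processing notes. The deposited log2 table of the authors, which holds this signal shifted by a constant per array, was used only as an alternative. Each array held 62976 spots, of which 3671 were controls. No spot was saturated, and of 55681 probes 56.6% to 59.6% stood well above background, depending on the array. No read depth exists for arrays, and their number limits the precision.

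Starting from these signals, outlier spots were dropped, replicate spots were averaged as log2 values and each array was centred on its 75th percentile. A probe was kept if any of the 4 arrays showed it well above background (35540 were). A gene is the mean of its kept probes, named by the gene name in the files through RefSeq symbols and synonyms (GRCm38.p6, used for names and promoters). Probe positions are those of the files, on mm9. Where the probes of a named gene disagreed, their range is given. Repeat spots of 1 probe had a median SD of 0.061 in the control and 0.065 at day 8.

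The members, lists and tests were chosen with earlier results of these data known. Named are all members and, of each list, up to 3 genes that rose and 3 that fell most at day 8, at least 2-fold changed with all probes well above background on every array. Any other gene of these lists given with a value is marked as picked or named after its values were seen. Single cell type markers lie outside this rule and were named with their values known. Some tRNA synthetases were entered under the older symbols of the RefSeq table once it was at hand. The median error of a gene's day 8 change was 0.20. Python 3.11.15, numpy 2.4.6, pandas 2.3.3, R 4.3.3 and limma 3.58.1 were used, and the pipeline was tested on simulated data.

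The alternatives changed the scale (array median, quantile normalization, or the latter after normexp with an offset of 50), took the authors' values, dropped or tightened the filter for dim probes, put a floor under dim values, used the brightest probe, kept outlier spots, or named probes by accession.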

Additional observations from a re-analysis of the deposited data

How the results depend on the processing

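Single arrays without replicates limit every value here, and the error model covers the array only. No paired analysis was possible because there are no replicates to pair, and for the same reason no array was left out. Asns and Chac1 were at least 2-fold lower on each day in all 11 settings, Atf4 at day 4 and day 8, and Trib3 and Herpud1 at day 4. Of 300 values for single members, 277 moved by less than 0.20, the median array error of a gene. This count says little, as most of the alternatives could hardly move probes that were well above background on all 4 arrays. The choice of the brightest probe could matter only for Atf4 and Dnajb9.

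With quantile normalization alone or after normexp, 2 members were 2-fold lower at day 6, and the day 8 median of the members was -0.43 and -0.41. ER-associated degradation and ER translocation then had 0 genes 2-fold lower and heat shock genes 1. With normexp the ATF4-linked tRNA synthetases had a median of -0.40, and the calls over all genes, higher and lower, were 868 and 793, 995 and 970, and 1064 and 1102 on the 3 days, in place of 1993 and 1586, 2150 and 1898, and 2375 and 1924.

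Under array-median scaling all genes shifted by -0.14, -0.13 and -0.27, and relative to this shift no gene's change differed, by construction. Unadjusted for it, 0 members were 2-fold higher at day 6 and at day 8, and their day 8 median was -0.91. The list medians at day 8 were then -0.49 for sensors, -0.69 for eIF2, -0.071 for ATF4 and CHOP partners, -0.88 for amino acid genes, -0.88 for ATF4-linked and -0.54 for other tRNA synthetases, -0.42 for ER chaperones, -0.53 for degradation, -0.61 for translocation, -0.70 for heat shock and -0.12 for mitochondrial chaperones. The numbers of genes 2-fold lower were 2, 1, 2, 9, 5, 1, 1, 2 and 4 for the first 9 of these lists.

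With the authors' values 1 ATF4 and CHOP partner was 2-fold lower, with no filter 2 degradation genes were higher, and with the brightest probe 2 translocation genes were lower. With probes above background on all 4 arrays, 14436 genes were left, as probes dim on any array were dropped. Of these, 1216, 1363 and 1476 were higher and 1112, 1382 and 1481 lower on the 3 days. The cause of these differences was not tested.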

Other observations

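Chaperones outside the ER were also followed. Of 14 genes of the cytosolic heat shock response 13 were measured, Hspa1b having no probe under that name. At day 8, 0 rose and 2 fell, 0% and 15.4% of them, against 14.4% and 11.6% of all genes. The median change was -0.44 (-0.35 at day 4 and -0.50 at day 6). Hspb1, the small heat shock protein HSP27, read 117 in the CMP control and then 24.6, 14.7 and 15.3 on days 4, 6 and 8 and fell by 2.93 ± 0.20, a 7.65-fold lower level. Hsph1, an HSP110 exchange factor for Hsp70, read 13.3, 5.43, 5.49 and 6.20 (-1.10 ± 0.14 at day 8, and -0.96 with quantile normalization). In both, the control was the highest array. Dnaja1, an Hsp40 co-chaperone named after its values were seen, had a mean change of 0.68 at day 8 from probes of opposite sign. The bright probe went from 84.1 in the control to 70.8 at day 8 and the dim one from 0.248 to 0.752.

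The 12 mitochondrial chaperones and proteases, the genes of the mitochondrial counterpart of this response, did not pass 2-fold at day 8. Their medians were 0.11, 0.19 and 0.15 on the 3 days, or -0.12 at day 8 with the array median as the scale. Hspd1 and Hspa9, the matrix chaperones HSP60 and mortalin, named after their values were seen, changed by 0.14 and 0.18 at day 8.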
